A study of Mus musculus with 36 samples.

Results

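Oligodendrocyte precursor genes are described here as 6 genes taken by symbol from the 31554 genes of the table: Pdgfra, Cspg4, Bmp4, Gpr17, Neu4 and Enpp6. Each had 1 row, and all 6 are followed over all 36 libraries. The libraries were RNA sequencing libraries of 3 brain regions of adult male C57BL/6 mice with no transgene named in the labels: the periaqueductal grey (PAG), the nucleus accumbens (NAc) and the prefrontal cortex (PFC; the design text names the medial part). Mice had spared nerve injury (SNI) of the sciatic nerve, a lasting model of neuropathic pain in which some branches of the nerve are cut and another is left whole, or sham surgery, and tissue was taken 2.5 months later. Each region had 6 SNI and 6 sham libraries. The RNA of each library was a pool of unstated size, and nothing says that libraries come from separate animals, so the p-values reflect library-to-library spread, some of which may be technical.

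Oligodendrocyte precursor cells are the dividing glial cells that persist in the adult brain and spread evenly through grey and white matter. When such a cell leaves the cell cycle it passes through a short committed stage, in which it stops making the PDGF receptor and the NG2 proteoglycan, before it becomes a myelinating oligodendrocyte. Pdgfra encodes the receptor for PDGF-AA, the main mitogen of precursors, and Cspg4 encodes NG2. Bmp4 (a secreted bone morphogenetic protein), Gpr17 (a G protein-coupled receptor that holds back maturation), Neu4 (a sialidase) and Enpp6 (a choline-specific phosphodiesterase) mark the committed stage. Pdgfra is also made by fibroblasts of the meninges and vessels, Cspg4 by mural cells of vessels, and Bmp4 by meningeal and vascular cells. In bulk tissue, fewer cells of a type and less RNA per cell cannot be told apart.

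The transcripts differ in base composition: GC content was 59.2% in Cspg4, higher than in 93.0% of the genes past the filter on low values, and 42.3% in Enpp6, higher than in 13.5%. Pdgfra had 48.1%, Neu4 49.7%, Bmp4 52.5% and Gpr17 53.4%. RefSeq promoters (250 bases before to 50 after the gene's start, GRCm38.p6) were matched for 5 of the 6 members. Those of Cspg4 and Enpp6 are shown because the transcripts of these genes stand at the ends of the members' range of GC content. The PAG comparison below concerns the GC content of transcripts, not of promoters. Capitals mark CG dinucleotides.
Cspg4 (chr9:56864854-56865153, plus strand): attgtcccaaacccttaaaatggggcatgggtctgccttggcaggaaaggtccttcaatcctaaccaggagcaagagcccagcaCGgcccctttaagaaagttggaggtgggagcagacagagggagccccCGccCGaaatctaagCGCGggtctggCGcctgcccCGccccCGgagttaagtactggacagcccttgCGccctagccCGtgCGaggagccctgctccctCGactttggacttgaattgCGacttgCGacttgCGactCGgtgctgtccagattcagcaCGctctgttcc
Enpp6 (chr8:46986637-46986936, plus strand): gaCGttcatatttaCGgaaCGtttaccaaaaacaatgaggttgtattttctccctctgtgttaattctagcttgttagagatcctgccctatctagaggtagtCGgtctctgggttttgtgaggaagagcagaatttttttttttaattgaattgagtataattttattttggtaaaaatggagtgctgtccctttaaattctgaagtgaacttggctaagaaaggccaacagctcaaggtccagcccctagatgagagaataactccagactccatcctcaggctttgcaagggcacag
The Cspg4 promoter is 60.0% GC with 17 CG dinucleotides, and the Enpp6 promoter is 40.3% GC with 4. The Bmp4 promoter, not shown, is 64% GC, above that of Cspg4. The median over 27025 promoters was 52.7% GC and 7 CG dinucleotides. Motifs were searched on both strands. The E-box CAGCTG, present in 16.1% of all promoters, was in none of the 5 matched members. Of the SOX hexamers, which share their first letters and cannot match at the same place, ACAAAG (18.7% of all promoters) was in none of the 5 and ACAATG (12.8%) was in Enpp6 at 1 place. A match describes the letters only.

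Coordinates are those of GENCODE M21 on the mm10 (GRCm38) build. Pdgfra lies on chromosome 5 (75152292 to 75198215, plus strand), Cspg4 on chromosome 9 (56865033 to 56899870, plus strand) and Bmp4 on chromosome 14 (46383520 to 46390669, minus strand). Gpr17 lies on chromosome 18 (31942997 to 31949636, minus strand), Neu4 on chromosome 1 (94020451 to 94028334, plus strand) and Enpp6 on chromosome 8 (46986887 to 47096762, plus strand). Gpr17 overlaps Lims2 on the opposite strand, which averaged 4.01 RPKM, and since the strand setting of the counting is not given, Gpr17 values are uncertain to that extent. The 6 genes lie on 6 different chromosomes.

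Levels are given in RPKM (a gene's reads scaled to its length in kilobases and to the library's assigned reads in M, or mega), the unit the authors deposited. Over the 36 libraries Pdgfra averaged 13.1 RPKM and Gpr17 9.64 RPKM, while Cspg4 (2.35), Neu4 (2.14), Enpp6 (1.65) and Bmp4 (0.484 RPKM) were low. In PAG, Pdgfra was above 74.3% and Enpp6 above 26.3% of the genes past the filter, a mean of 0.5 RPKM or more over the libraries fitted. Bmp4 passed the filter in NAc only. Its 17 to 258 reads per library, with a counting error of up to 24.3%, limit what its values can show, whereas Pdgfra had 2449 to 6282 reads. Depth was 27.6 to 64.9 M assigned reads, and lower in PAG (mean 36.3 M) than in NAc (51.7 M) and PFC (51.8 M). In PAG, Bmp4 had 17 to 43 reads per library. On average, the libraries carried the neuronal markers of the region they were labelled with. The list level is the mean of log2(RPKM + 0.5) over a list's genes. For 8 midbrain neuron genes it averaged 3.76 in PAG, 0.463 in NAc and -0.393 in PFC. That of 7 striatal genes was highest in NAc at 6.52, and that of 7 cortical genes was highest in PFC at 5.10. Libraries of a region varied: the cortical level ran from 0.190 to 2.75 in NAc, and the striatal level from 1.47 to 2.91 in PFC. The midbrain level in PAG ran from 2.97 to 4.07 in SNI and from 3.72 to 4.14 in sham libraries (exact permutation p = 0.108, adjusted p = 0.155). Of 16 other precursor markers, 15 had a row and all 15 passed the filter in PAG.

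**Figure D1:**
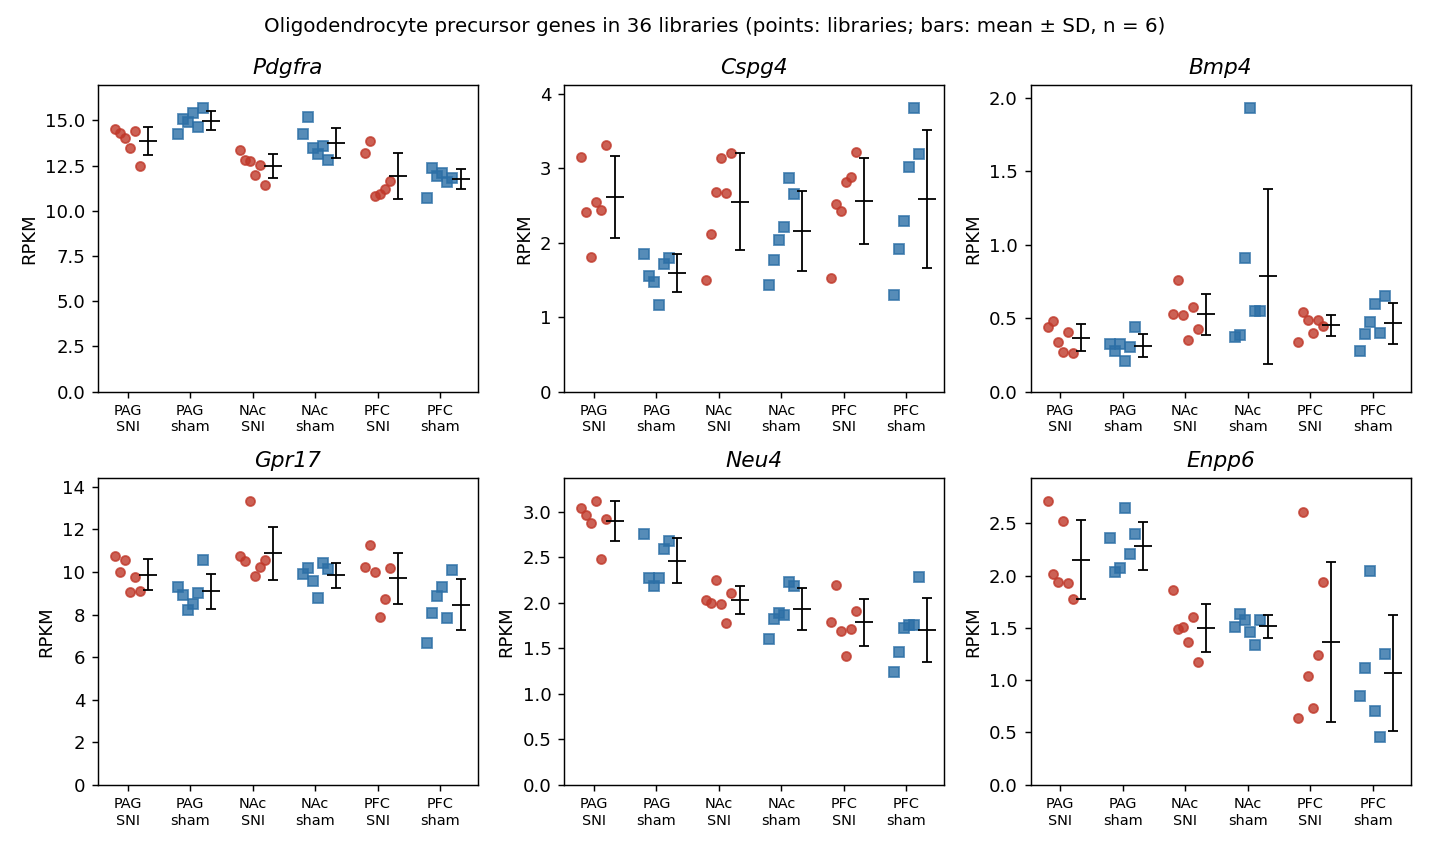
RPKM of the 6 members in each of 36 libraries, 1 panel per gene; red circles are SNI and blue squares sham libraries, and black marks give the mean and SD of 6. Cspg4 in PAG sits at 1.81 to 3.32 RPKM after SNI and at 1.16 to 1.85 RPKM after sham surgery, Enpp6 scatters most in PFC, and 1 NAc sham library stands apart for Bmp4 at 1.93 RPKM.

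In PAG, the midbrain centre of descending pain control, 3 of the 5 members tested differed between SNI and sham libraries. Cspg4 was higher and Neu4 slightly higher after SNI, and Pdgfra was slightly lower. The share of members called, 60%, stands beside 35.2% of all 15592 genes tested (21.5% higher and 13.7% lower), so calls were common in this region whatever the gene. The members' median log2 fold change was 0.12, against -0.02 over all genes tested. Tests were limma's two-sided test on log2(RPKM + 0.5) with Benjamini-Hochberg adjustment over all genes and a threshold of 0.05, and fold changes on that scale understate those of low genes.

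Cspg4, the NG2 proteoglycan of precursors and mural cells, had a lowest, median and highest level of 1.81, 2.50 and 3.32 RPKM in PAG SNI libraries, against 1.16, 1.64 and 1.85 RPKM in PAG sham libraries. All 6 SNI libraries lay above the sham median, and the groups overlapped only at the lowest SNI and highest sham library. The log2 fold change was 0.56 ± 0.12 (SE, n = 6 each; adjusted p = 0.00234 by limma), or 1.48-fold. Pdgfra, the other gene of the dividing precursor, had 12.5, 14.1 and 14.5 RPKM in SNI libraries, against 14.3, 14.98 and 15.7 RPKM in sham libraries. All 6 SNI libraries lay below the sham median, and the groups overlapped between 14.3 and 14.5 RPKM. Its log2 fold change was -0.11 ± 0.04 (adjusted p = 0.0454 by limma), or 0.926-fold, close to the threshold. The pair of dividing-stage genes thus had opposite signs.

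Among the genes of the committed stage, Neu4 had 2.49, 2.95 and 3.12 RPKM in PAG SNI libraries, against 2.19, 2.44 and 2.76 RPKM in PAG sham libraries. Of the SNI libraries, 6 of 6 lay above the sham median, and the lowest of them lay inside the sham range. Its log2 fold change was 0.20 ± 0.06 (adjusted p = 0.0250 by limma). Gpr17 had 9.07, 9.89 and 10.8 RPKM in SNI libraries, against 8.22, 8.97 and 10.6 RPKM in sham libraries, a log2 fold change of 0.12 ± 0.06 (95% interval -0.01 to 0.24) that missed the threshold (adjusted p = 0.145 by limma). Enpp6 had 1.78, 1.98 and 2.71 RPKM in SNI libraries, against 2.04, 2.28 and 2.65 RPKM in sham libraries, and 4 of 6 SNI libraries lay below every sham library while the highest lay above all of them (log2 fold change -0.08 ± 0.09, adjusted p = 0.505). Bmp4 fell below the filter in PAG. It averaged 0.367 ± 0.091 RPKM in SNI and 0.312 ± 0.076 RPKM in sham libraries (SD, n = 6 each), and a fit with no filter gave 0.09 ± 0.08 (adjusted p = 0.547).

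The PAG groups also differed in how level followed base composition. The GC slope of a library says how its log2 levels, less the mean of the region, change with the GC content of the genes, per 10 percentage points. In PAG it ran from 0.0359 to 0.218 in SNI libraries and from -0.217 to -0.0246 in sham libraries, with no overlap (exact permutation p = 0.00216, the smallest that 6 against 6 libraries allow). Surgery accounted for 81.1% of the variance of the slope in PAG, 13.5% in NAc and 0.20% in PFC, so in PAG surgery and GC slope cannot be told apart. With each library's GC trend removed, 2046 genes (13.1%; 7.82% higher and 5.3% lower) passed in PAG, and the log2 fold change was 0.21 for Cspg4 (adjusted p = 0.142), -0.06 for Pdgfra (0.247) and 0.22 for Neu4 (0.0472). Neu4 was then the only member called, close to the threshold. With the slope as a covariate no gene passed, and the estimates were -0.20 ± 0.15 for Cspg4, 0.06 ± 0.07 for Pdgfra and 0.03 ± 0.14 for Neu4.

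The calls for Pdgfra and Neu4 also depended on single libraries. Of 12 fits that each left out 1 PAG library, Cspg4 passed in 12 (adjusted p from 0.000423 to 0.00655), Neu4 in 7 and Pdgfra in 4. Pdgfra was not called without sham replicate 26, 27, 28, 29 or 30 or SNI replicate 32, 34 or 36 (highest adjusted p = 0.0981), and Neu4 was not called without sham replicate 26, 27 or 28 or SNI replicate 31 or 34 (highest adjusted p = 0.0582). Gpr17 was called without sham replicate 30 (adjusted p = 0.0353). Over the other settings, Neu4 missed the threshold with no filter (adjusted p = 0.0526), quantile scaling (0.15, adjusted p = 0.0976) and 1 model of all 36 libraries (adjusted p = 0.0810), and Pdgfra with no filter (adjusted p = 0.0694) and 1 model (adjusted p = 0.115). The replicate numbers are the sample numbers of the labels.

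**Figure D2:**
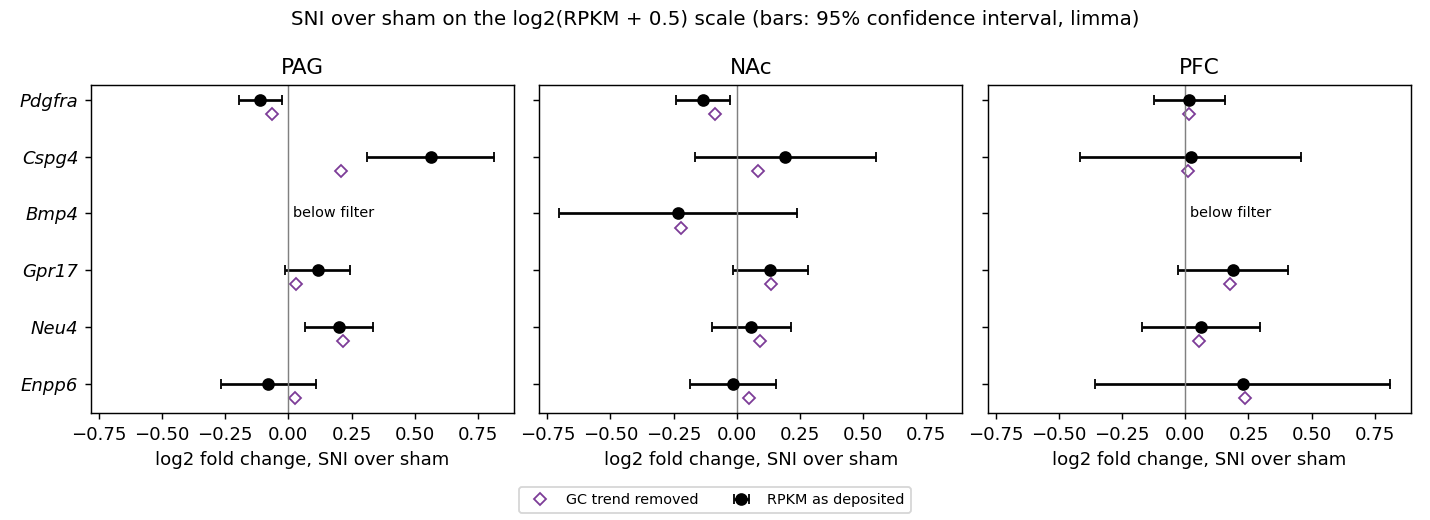
Log2 fold change of each member, SNI over sham, in the 3 regions; black points with bars are the limma estimate and 95% confidence interval from the RPKM as deposited, and open purple diamonds the estimate with each library's GC trend removed. In PAG, Cspg4 stands at 0.56 as deposited and 0.21 with the trend removed, and Neu4 at 0.20 and 0.22; Bmp4 was below the filter in PAG and PFC.

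In NAc, the ventral striatal centre of reward, no member passed the test, and neither did any of the 15264 genes (0%; lowest adjusted p = 0.0907; 660 genes had an unadjusted p under 0.05, and voom, limma's method for counts, called no gene). Pdgfra had 11.4, 12.7 and 13.4 RPKM in SNI libraries, against 12.8, 13.5 and 15.2 RPKM in sham libraries. All 6 SNI libraries lay below the sham median, and the log2 fold change of -0.13 ± 0.05 had an unadjusted p of 0.0195 and an adjusted p of 0.780 (limma). Gpr17 had 9.79, 10.54 and 13.3 RPKM in SNI libraries, against 8.77, 10.03 and 10.4 RPKM in sham libraries (log2 fold change 0.13 ± 0.07, adjusted p = 0.780); without the highest library, SNI replicate 9, it was 0.08. Bmp4 had 0.350, 0.523 and 0.759 RPKM in SNI libraries, against 0.373, 0.549 and 1.93 RPKM in sham libraries. Its log2 fold change of -0.23 ± 0.22 (adjusted p = 0.782) was -0.03 without sham replicate 4. Cspg4 averaged 2.55 ± 0.650 RPKM in SNI and 2.16 ± 0.536 RPKM in sham libraries, Neu4 2.03 ± 0.154 and 1.93 ± 0.235 RPKM, and Enpp6 1.501 ± 0.230 and 1.51 ± 0.106 RPKM, in the same order of groups (SD, n = 6 each).

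In PFC, which takes part in the evaluation of pain, 0 of 5 members and 0 of 15192 genes (0%) passed; 220 genes had an unadjusted p under 0.05, and voom called no gene. Pdgfra averaged 11.9 ± 1.27 RPKM in SNI and 11.8 ± 0.576 RPKM in sham libraries (SD, n = 6 each), a log2 fold change of 0.02 with a 95% interval from -0.12 to 0.16. Gpr17 had 7.88, 10.1 and 11.2 RPKM in SNI libraries, against 6.66, 8.46 and 10.1 RPKM in sham libraries. The log2 fold change was 0.19 ± 0.10 with an unadjusted p of 0.0811 (limma) and an interval from -0.03 to 0.41. Intervals were wide for Cspg4 (-0.42 to 0.46) and for Enpp6 (-0.36 to 0.81), whose levels differed most among libraries of the same surgery. Neu4 averaged 1.79 ± 0.258 RPKM in SNI and 1.70 ± 0.351 RPKM in sham libraries, and Bmp4, below the filter, 0.450 ± 0.072 and 0.464 ± 0.140 RPKM in the same order.

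No difference of SNI effects between regions passed for a member or for any of 15639 genes (0% in each of 3 contrasts; 1405 genes had an unadjusted p under 0.05 for PAG minus NAc, 2779 for PAG minus PFC and 178 for NAc minus PFC). For Cspg4 the SNI effect in PAG minus that in PFC was 0.54 ± 0.25 on the log2 scale (unadjusted p = 0.0376, adjusted p = 0.256 by limma), and PAG minus NAc was 0.37 ± 0.25 (adjusted p = 0.653). For Pdgfra the effect in PAG differed from that in NAc by 0.02 ± 0.07, while NAc minus PFC was -0.15 ± 0.07 (unadjusted p = 0.0497, adjusted p = 0.999). With libraries weighted by their quality, PAG minus PFC passed for Cspg4 (0.69, adjusted p = 0.00751) and Neu4 (0.28, adjusted p = 0.0466), as it did for 3712 genes in all.

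Between regions in sham libraries, no member tested reached a 2-fold difference on the log2(RPKM + 0.5) scale, which understates differences of low genes such as Enpp6; with a pseudocount of 0.1 or voom on the recovered reads, Enpp6 did for PAG over PFC. None was called at an adjusted p under 0.05 with at least a 2-fold difference, against 15.1% of 15639 genes for PAG over PFC, 13% for PAG over NAc and 6.85% for NAc over PFC. By adjusted p alone, which 76.1%, 71% and 59% of genes passed in these contrasts, 4, 3 and 3 of 5 members did. The median log2 fold change of 18 myelin genes for PAG over PFC was 1.53, and 16 of them were called. The median of 15 other precursor markers was 0.33 and that of 14 other genes of the committed stage 0.50, with 2 and 5 called; the median over all genes was 0.09.

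Enpp6, the committed-stage phosphodiesterase, had the largest regional difference of the 5 members tested: 2.04, 2.28 and 2.65 RPKM in PAG sham libraries, against 0.455, 0.981 and 2.05 RPKM in PFC sham libraries. Only the highest PFC library reached the PAG range. The log2 fold change was 0.89 ± 0.18 (adjusted p = 4.47e-05), and 0.47 ± 0.18 for PAG over NAc (adjusted p = 0.0224). Next in the order PAG, NAc, PFC, NAc over PFC (0.43 ± 0.18, adjusted p = 0.0419) passed in 4 of 12 fits that left out 1 library, and it missed the threshold with a pseudocount of 1 (adjusted p = 0.0517), no filter (0.0729), median-of-ratios scaling (0.0746) and quantile scaling (0.0779), and among SNI libraries (0.19, adjusted p = 0.405). Enpp6 passed the 2-fold rule for PAG over PFC with a pseudocount of 0.1 (1.15), with voom (1.19) and without PFC sham replicate 15 (1.05). Neu4 followed the same order, with 2.46 ± 0.245 RPKM in PAG, 1.93 ± 0.235 in NAc and 1.70 ± 0.351 in PFC sham libraries (SD, n = 6 each). It was higher in PAG than in PFC by 0.44 ± 0.08 and than in NAc by 0.29 ± 0.08 on the log2 scale (adjusted p = 2.04e-05 and 0.00311), and NAc over PFC missed the threshold (0.15 ± 0.08, adjusted p = 0.119).

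Pdgfra was highest in PAG at 14.99 ± 0.521 RPKM, then NAc at 13.7 ± 0.849 and PFC at 11.8 ± 0.576 RPKM in sham libraries (SD, n = 6 each). Its differences were small but passed: 0.34 ± 0.05 for PAG over PFC (adjusted p = 5.02e-07), 0.12 ± 0.05 for PAG over NAc (0.0347, called in 5 of 12 fits that left out 1 library) and 0.22 ± 0.05 for NAc over PFC (0.000549). Among SNI libraries NAc over PFC was 0.07 (adjusted p = 0.281), and PAG over NAc was 0.06 with median-of-ratios scaling (adjusted p = 0.249). Gpr17 had its highest sham level in NAc (9.83 ± 0.60 RPKM), then PAG (9.09 ± 0.827) and PFC (8.46 ± 1.21). NAc over PFC passed (0.21 ± 0.08, adjusted p = 0.0232), but not with median-of-ratios scaling (0.14, adjusted p = 0.122), quantile scaling (0.15, adjusted p = 0.0945) or array weights (0.13, adjusted p = 0.166), among SNI libraries (0.16, adjusted p = 0.0985), or without PFC sham replicate 13 or 17 (adjusted p up to 0.0935). Its PAG over NAc (-0.11 ± 0.08) and PAG over PFC (0.10 ± 0.08) missed the threshold. Cspg4 ran the other way: it was lower in PAG sham (1.59 ± 0.256 RPKM) than in PFC sham libraries (2.59 ± 0.923), a log2 fold change of -0.51 ± 0.18 (adjusted p = 0.00969). Among SNI libraries this difference was 0.03 (adjusted p = 0.888), with 2.62 ± 0.549 RPKM in PAG and 2.56 ± 0.583 in PFC. Bmp4, below the filter over the 36 libraries, averaged 0.312 ± 0.076 RPKM in PAG, 0.784 ± 0.595 in NAc and 0.464 ± 0.140 in PFC sham libraries; a fit with no filter gave -0.56 ± 0.15 for PAG over NAc (adjusted p = 0.00279), and -0.36 ± 0.11 (adjusted p = 0.00784) without NAc sham replicate 4, the high library. Several of these small differences no longer passed when each library's GC trend was removed: Cspg4 for PAG over PFC (-0.12, adjusted p = 0.288), Pdgfra for PAG over NAc (0.03, adjusted p = 0.481), and Enpp6 for PAG over NAc (0.36, adjusted p = 0.0708) and for NAc over PFC (0.31, adjusted p = 0.139). Those for PAG over PFC stayed past the threshold for Enpp6 (0.67, adjusted p = 0.00119), Neu4 (0.27, adjusted p = 0.00349) and Pdgfra (0.14, adjusted p = 0.00183).

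The members varied in unlike ways among libraries of 1 group. Over 12 libraries per region, with log2 values centred by surgery group, 45 pairs were correlated: r was above 0 in 13 of 15 pairs in PAG, 9 in NAc and 14 in PFC, with medians of 0.23, 0.02 and 0.47. Only Gpr17 with Neu4 in PFC passed the correction (Pearson r = 0.898, permutation p = 0.00050, adjusted p = 0.0225; Spearman rho = 0.832, permutation p = 0.00303, adjusted p = 0.136), and r was 0.798 without the PFC libraries of replicates 13 and 20. In NAc, Pdgfra and Cspg4 had r = -0.768 (permutation p = 0.00623, adjusted p = 0.110; rho = -0.748, permutation p = 0.0104, adjusted p = 0.200), which fails the correction.

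**Figure D3:**
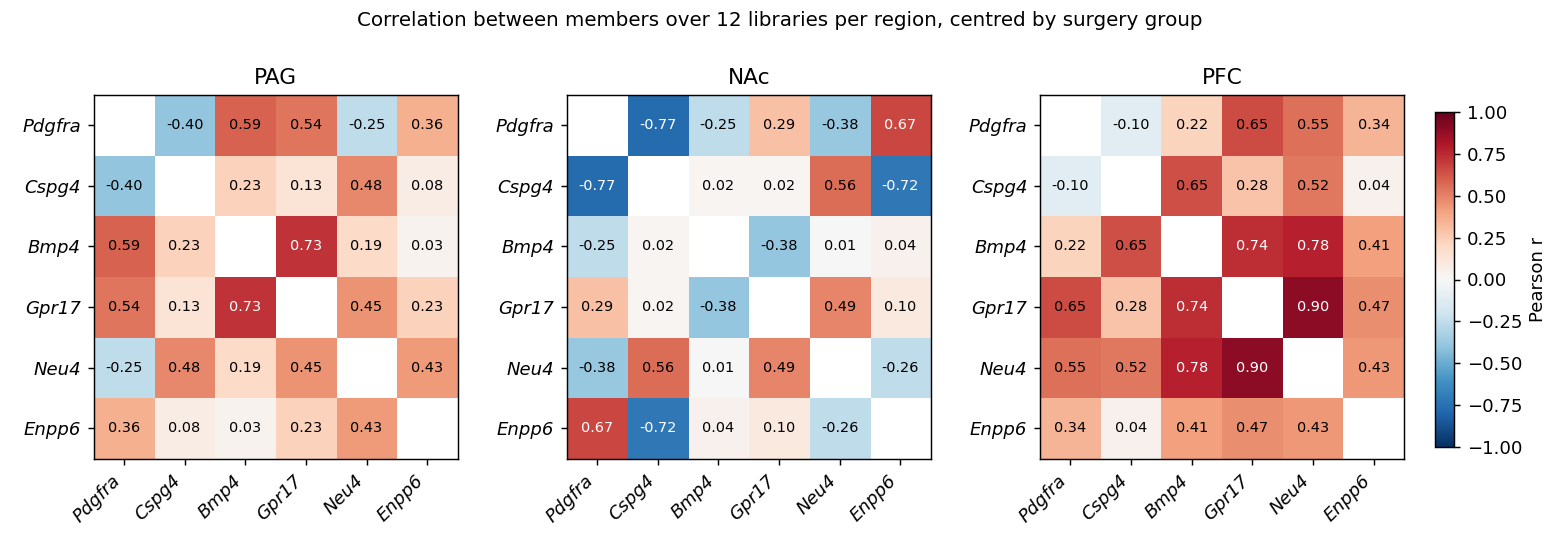
Pearson r between the 6 members over 12 libraries in each region, log2(RPKM + 0.5) centred by surgery group; red is positive, blue negative. PFC is nearly all positive, with Gpr17 and Neu4 at 0.90. In NAc, Cspg4 is at -0.77 with Pdgfra and at -0.72 with Enpp6, and neither passes the correction.

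Cspg4 followed the GC slope of the library in every region. The relation was r = 0.888 in PAG (rho = 0.888), 0.954 in NAc (rho = 0.846) and 0.942 in PFC (rho = 0.874), with permutation p = 0.00003, 0.00010 and 0.00017 for r and 0.00033, 0.00120 and 0.00106 for rho. Adjusted over 18 such relations, p was 0.00054, 0.00090 and 0.00102 for r and 0.00297, 0.00540 and 0.00540 for rho. Without the 2 libraries of most extreme slope, r was 0.782, 0.884 and 0.828. Pdgfra ran against the slope in NAc (r = -0.808, permutation p = 0.00163, adjusted p = 0.00733; rho = -0.888, permutation p = 0.00033, adjusted p = 0.00297), and r was -0.822 without the 2 most extreme libraries. In PAG its r of -0.679 fails the correction (permutation p = 0.0234, adjusted p = 0.0702; rho = -0.476, permutation p = 0.140, adjusted p = 0.361). Gpr17 had r from -0.13 to 0.20 with the slope. Neu4 had r of 0.418 in PAG, 0.378 in NAc and 0.409 in PFC, none past the correction. Enpp6 had r = -0.679 in NAc (permutation p = 0.0335, adjusted p = 0.0861), -0.202 in PAG and 0.102 in PFC. Bmp4 had r = 0.690 in PFC (permutation p = 0.0218, adjusted p = 0.0702), 0.050 in PAG and 0.188 in NAc. The Bmp4 value in PFC was 0.273 without the 2 most extreme libraries. These are values centred by surgery group, so they hold within the groups.

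**Figure D4:**
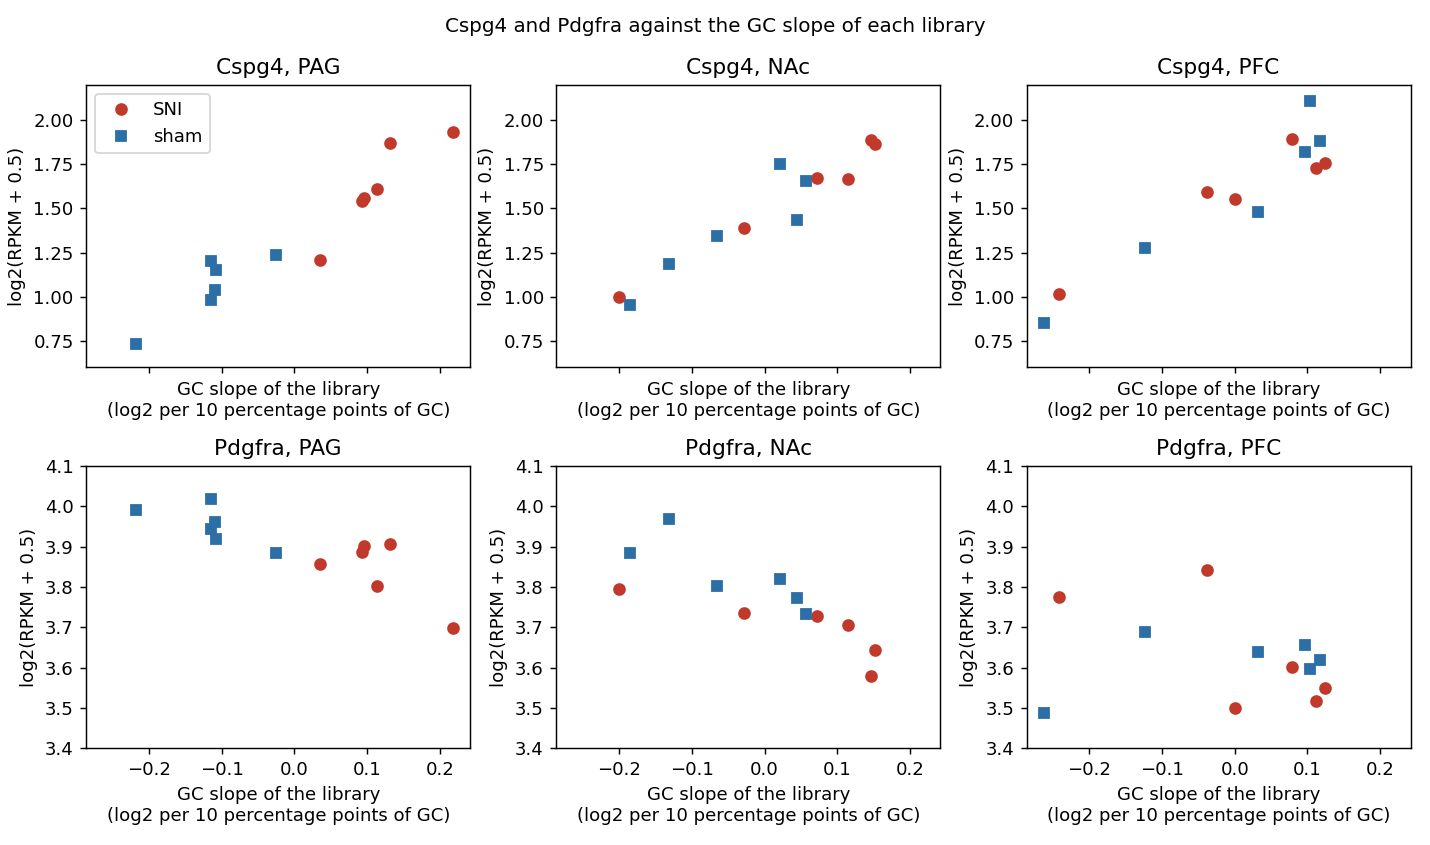
Level of Cspg4 (top) and Pdgfra (bottom), as log2(RPKM + 0.5), against the GC slope of the library, in log2 per 10 percentage points of GC, in PAG, NAc and PFC; red circles are SNI and blue squares sham libraries. Cspg4 rises with the slope in all 3 regions, and in PAG all SNI libraries lie to the right of all sham libraries.

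Enpp6 followed the myelin genes in PFC. The PFC libraries differed widely in myelin content: the level of the 18 myelin genes was 2.90 to 4.94 in SNI and 2.95 to 4.64 in sham libraries, and Enpp6 spanned 5.74-fold over the 12. Centred by surgery group, Enpp6 and the myelin level had r = 0.975 (rho = 0.986; permutation p = 2e-05 and adjusted p = 0.00108 for each), and r = 0.966 without SNI replicates 20 and 24. In PAG the r of 0.771 failed the correction (permutation p = 0.0137, adjusted p = 0.185; rho = 0.832, permutation p = 0.00433, adjusted p = 0.0779), and it was 0.451 without SNI replicates 34 and 31. The NAc r of 0.564 failed it too (permutation p = 0.125, adjusted p = 0.310), and was 0.270 without SNI replicates 9 and 7. Bmp4 followed a list of 13 fibroblast genes in NAc (r = 0.957, permutation p = 0.00138, adjusted p = 0.0248; rho = 0.818, permutation p = 0.0118, adjusted p = 0.159). This rests in part on sham replicates 4 and 3, without which r was 0.667. In sham replicate 4, Bmp4 was at 1.93 RPKM with a fibroblast level of 2.54 and a mural level of 2.72; the part of those cells in the Bmp4 value was not tested.

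**Figure D5:**
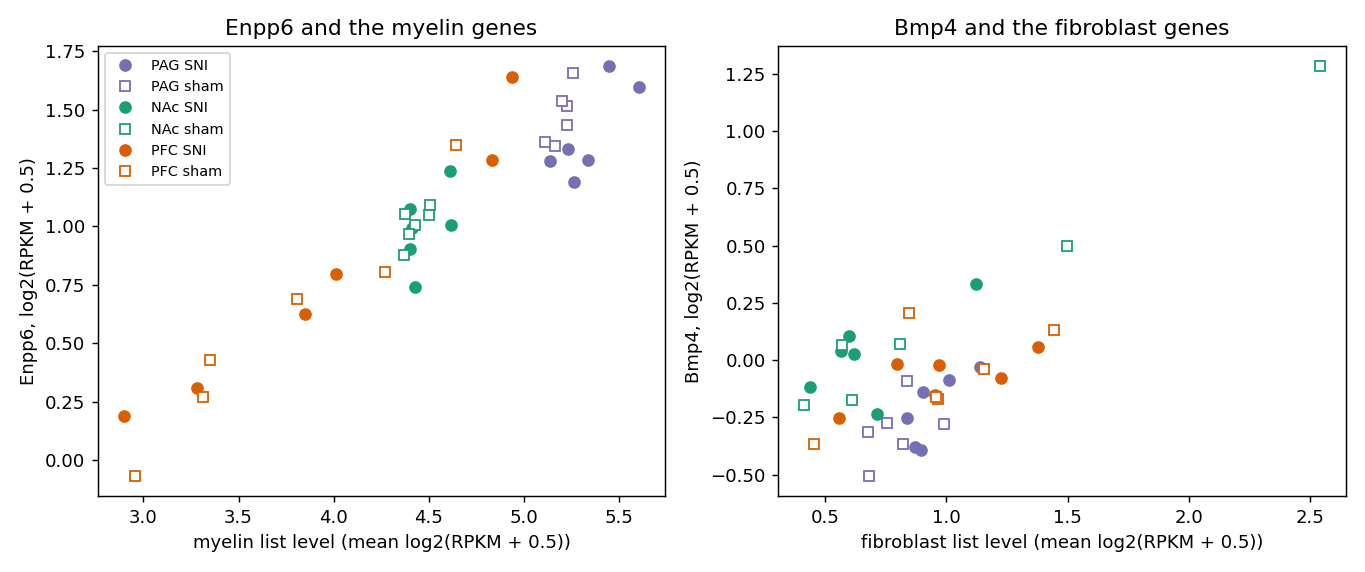
Enpp6 against the level of 18 myelin genes (left) and Bmp4 against the level of fibroblast genes (right), all as log2(RPKM + 0.5), in 36 libraries; filled circles are SNI and open squares sham libraries, coloured by region. Enpp6 rises with the myelin level across PFC, and 1 NAc sham library lies apart in the right panel at a fibroblast level of 2.54.

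Cspg4 also moved with the mural list, which holds 12 pericyte and smooth muscle genes, in PAG (r = 0.840, permutation p = 0.00127, adjusted p = 0.0248; rho = 0.846, permutation p = 0.00289, adjusted p = 0.0779), with r = 0.715 without SNI replicates 36 and 31. In NAc, Cspg4 and the mural list had r = 0.189 (permutation p = 0.595, adjusted p = 0.784). In PFC r was 0.655 (permutation p = 0.0423, adjusted p = 0.210), and 0.347 without sham replicates 13 and 16. These relations were not computed with the GC trend removed, and Cspg4 in PAG also had r = 0.888 with the GC slope. The mural level in PAG ranged from 1.90 to 2.23 in SNI and from 1.86 to 2.06 in sham libraries (exact permutation p = 0.152, adjusted p = 0.202). Of the 12 mural genes, 3 were called higher in PAG and none lower: Notch3 (0.36), Ndufa4l2 (0.33) and Vtn (0.14, log2 fold changes), a share of 25% beside the 35.2% of all genes. With the GC trend removed, none of the 12 was called, beside 13.1% of all genes. The part of mural cells in the Cspg4 difference was not tested. In the fibroblast list, 5 of 11 genes tested were higher in PAG (45.5%, beside 21.5% of all genes called higher). With the GC trend removed 1 of 11 was, beside 7.82% of all genes.

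The genes whose pattern was most like each member's, by Pearson r over 36 libraries after centring by group among the 12895 named genes past the filter, differed from member to member. For Pdgfra they were Asrgl1 (0.840), Cyfip1 (0.838) and Tnfaip8 (0.814), whose transcripts are 45.9% to 47.7% GC. Cspg4 was nearest to Prex1 (0.958), Cic (0.949) and Caskin2 (0.947), whose transcripts are 57.6% to 61.6% GC. Gpr17 was nearest to Rftn2 (0.742), Neu4 (0.720) and Sash1 (0.698), at 47.3% to 50.8% GC. Neu4 was nearest to Abtb2 (0.807), Nacc2 (0.786) and Olig2 (0.767), at 53.9% to 58.8% GC. Enpp6 was nearest to Gpr37 (0.967), Pde8a (0.964) and Tmem88b (0.964), at 48.1% to 49.2% GC. For Bmp4 they were H2-Ab1 (0.888), Slc22a6 (0.884) and H2-Aa (0.878), at 46.5% to 57.3% GC. Without NAc sham replicate 4 these r values were 0.727, 0.734 and 0.704.

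Among other precursor markers in PAG, 4 of 15 were called higher and 1 lower after SNI (33.3%, beside 35.2% of all genes), with a median log2 fold change of 0.02. Sox10, a transcription factor of the whole oligodendrocyte lineage, averaged 17.3 ± 1.66 RPKM in SNI and 10.9 RPKM in sham libraries (0.63 ± 0.06, adjusted p = 4.87e-05), and Olig1, another lineage factor, 31.4 and 22.4 RPKM (0.48 ± 0.08, adjusted p = 0.000400). Cacng4 was higher by 0.18 and Ptprz1, a receptor phosphatase, lower, at -0.17, on the log2 scale. With the GC trend removed Sox10 was still called (0.18, adjusted p = 0.0174) and Olig1 (0.05, adjusted p = 0.635), Cacng4 (0.06, adjusted p = 0.267) and Ptprz1 (-0.08, adjusted p = 0.138) were not. Matn4 (0.29) and C1ql1 (-0.51, adjusted p = 0.00178) were the others called then, both named here after their values were seen; C1ql1 was 0.06 (adjusted p = 0.708) in the values as deposited. Of 14 other genes of the committed stage, Arpc1b (0.48) and Kif19a (0.40) were higher and Sema5a (-0.16) lower (21.4%). Under removal of the trend Arpc1b stayed called (0.43, adjusted p = 0.00539), and Kif19a (-0.02, adjusted p = 0.911) and Sema5a (-0.08, adjusted p = 0.364) did not. Of 18 myelin genes, 6 were higher and none lower (33.3%), among them Mbp (0.60), Cldn11 (0.45) and Mag (0.39); Mbp (0.59) and Cldn11 (0.44) were still called with the trend removed, and Mag was not (0.11, adjusted p = 0.429). Of 10 cell cycle genes, 3 passed the filter in PAG and none was called.

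Of the ligands and partner receptor of the PDGF pathway, Pdgfa, the ligand of the receptor that Pdgfra encodes, averaged 8.32 ± 0.473 RPKM in PAG SNI and 6.60 RPKM in PAG sham libraries (log2 fold change 0.31 ± 0.05, adjusted p = 0.000201). It was called with the GC trend removed too (0.27, adjusted p = 0.00130). Pdgfb was higher (0.22 ± 0.07, adjusted p = 0.0318) and Pdgfd lower (-0.24 ± 0.06, adjusted p = 0.00864), while Pdgfc (-0.08) and the mural receptor Pdgfrb (0.15) were not called. The 3 calls among 5 genes are 60%, beside 35.2% of all genes. With the GC trend removed, Pdgfb (-0.17, adjusted p = 0.101, a turned sign) and Pdgfd (-0.13, adjusted p = 0.185) were not called. Between regions in sham libraries, Pdgfd averaged 3.70 RPKM in PAG, 1.02 in NAc and 1.24 in PFC, and Pdgfb 2.79, 4.89 and 9.55 RPKM in the same order; PAG differed from PFC at least 2-fold for these 2 ligands (1.28 and -1.60 on the log2 scale). Pdgfa averaged 6.60, 4.85 and 7.90 RPKM in the same order.

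In the BMP pathway, which opposes oligodendrocyte differentiation, 5 of 20 genes tested were higher in PAG after SNI and 1 lower (30%, beside 35.2% of all genes; median log2 fold change 0.01). Id3, a target that blocks basic helix-loop-helix factors, averaged 3.43 RPKM in SNI and 1.72 RPKM in sham libraries (0.81 ± 0.12, adjusted p = 0.000183). Chrd, which encodes the antagonist chordin, was higher by 0.39 and the mediator Smad1 by 0.16, and the receptor Bmpr1a was lower, at -0.13. With the GC trend removed, 3 of the 20 were higher and none lower: Id3 (0.63), Chrd (0.29) and Smad1 (0.13). Of all genes, 7.82% were then called higher and 5.3% lower. Chrd averaged 1.26 RPKM in PAG, 1.57 in NAc and 7.40 in PFC sham libraries.

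Among relatives of the other members, the sialidases Neu1 (0.35 ± 0.05, adjusted p = 0.000246) and Neu2 (0.20 ± 0.07, adjusted p = 0.0409) were higher in PAG after SNI. Neu3 (0.04) was not called. The 2 calls among 3 sialidases are 66.7%, beside 35.2% of all genes called in either direction and 21.5% called higher. Neu1 was called with the GC trend removed as well (0.27), and Neu2 was not (0.14, adjusted p = 0.187). Of 4 other Enpp genes tested, Enpp5 (-0.19) and Enpp4 (-0.13) were lower, 50% beside the 35.2% of all genes called in either direction and 13.7% called lower. Enpp5 stayed called with the GC trend removed (-0.10, adjusted p = 0.0268) and Enpp4 did not (-0.03, adjusted p = 0.721). Enpp2, the phosphodiesterase autotaxin, was more abundant than Enpp6 per length, at 138 RPKM in PAG sham, 52.0 in NAc sham and 59.5 RPKM in PFC sham libraries. Of 5 purinergic relatives of Gpr17 tested none was called in PAG. The microglial receptor P2ry12 averaged 9.17 RPKM in PAG SNI and 9.93 RPKM in PAG sham libraries. Of 18 list levels, 7 differed with surgery in PAG at an adjusted p under 0.05: those of microglial, astrocyte and cortical neuron markers, of the other committed-stage genes, and of the PDGF, BMP and sialidase genes. None of 18 did in NAc or in PFC. The cortical level in PAG was low, at 0.293 in SNI and 0.171 in sham libraries, with 3 of its 7 genes past the filter. List levels were not computed with the GC trend removed, and in PAG surgery and GC slope cannot be told apart. The level of 8 microglial genes was 3.402 ± 0.056 in SNI and 3.21 ± 0.051 in sham libraries, and that of 8 astrocyte genes 6.13 ± 0.044 and 6.03 ± 0.058 in the same order (SD, n = 6 each; exact permutation p = 0.00216 and 0.00866, adjusted p = 0.0144 and 0.0289). In each of these lists only 4 of 8 genes had a log2 fold change above 0. Of the microglial genes, 3 were called higher and none lower (37.5%, beside 35.2% of all genes). Of the astrocyte genes, 4 were called higher and 1 lower (62.5%). In each list, 2 of 8 were called higher with the GC trend removed, beside 7.82% of all genes called higher. Their part in the members' differences was not tested.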

How the data were processed

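The authors deposited one table of RPKM, with a length per gene, covering 31554 genes. TopHat2, HTSeq and mm10 are named in the submitters' processing notes, without roles, versions or a strand setting. Per the labels' protocols, poly-T beads selected the RNA and a TruSeq kit was used on pools.

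RPKM times length and depth gave whole reads in 100% of values (tolerance 0.001), which gave each library's depth, 27.6 to 64.9 M assigned reads; counting errors cover counting only. Samples were grouped by region and surgery from their titles. The test was that of limma 3.58.1 (trend option, R 4.3.3) on log2(RPKM + 0.5), two-sided, for genes averaging 0.5 RPKM or more, with Benjamini-Hochberg adjustment over all genes and a threshold of 0.05. SNI comparisons used 12 libraries. Regional contrasts (called also at 2-fold) and differences of SNI effects came from 1 model of 36. The test was checked on simulated counts that held no GC trend, so the check does not cover the difference in GC slope between the PAG groups. Alternatives were pseudocounts of 0.1 and 1, no filter or 2 RPKM, median-of-ratios or quantile scaling, voom on the recovered reads, removal of a loess GC trend (span 0.3), array weights, 1 model, SNI in place of sham libraries, and leaving out each library. The GC slope covariate and the correlations with it were added after seeing the data. GC content came from GENCODE M21, which held 97.9% of the gene identifiers. Correlations used 100000 permutations within surgery groups and Python 3.11.15 with scipy 1.17.1.

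The 6 members and all gene lists were chosen with earlier results of these data known. All members are named; from each other list, up to 4 genes with the smallest p past the threshold, or genes of the family and pathway lists for their level; and per member the 3 genes of most similar pattern. Drd1 and Lhfpl3 had no row and were not used.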

Additional observations from a re-analysis of the deposited data

Results flagged for a closer look

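Of 60 groups of 6 libraries tested for a library far from the others, 3 held one, and chance alone flags about 1 group in 20. Gpr17 was at 13.3 RPKM in NAc SNI replicate 9, where the next highest NAc SNI library had 10.8 and the lowest 9.79 RPKM. Bmp4 was at 1.93 RPKM in NAc sham replicate 4, where the next highest sham library had 0.911 and the lowest 0.373 RPKM. The level of the mural list was 2.72 in the same library, where the next highest NAc sham library had 2.05 and the lowest 1.83 (mean log2(RPKM + 0.5)).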

How the results depend on the processing

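No paired analysis was possible because the groups share no replicate numbers in the labels. For single genes, direction and side of the adjusted p threshold held for 510 of 552 leave-one-out values and 282 of 317 others in the SNI comparisons and their differences. Between regions, by adjusted p alone, they held for 161 of 180 and 126 of 147. Most SNI values come from contrasts with no member called, where the side of the threshold could hardly change, so these counts do not measure how stable the calls are. For the members called in PAG, the call held in 12 of 12 leave-one-out fits for Cspg4, 7 for Neu4 and 4 for Pdgfra. Of the 5 PAG members tested, 1 was called with no filter, 1 with the GC trend removed, 1 with 1 model of all 36 libraries and 0 with the GC slope as covariate (3 as reported); leaving out 1 library gave 1 to 3. The genes called in PAG were 2046 with the trend removed, 3337 with 1 model and 0 with the covariate, against 5495. For PAG over PFC, 1 member was called with a pseudocount of 0.1 and 1 with voom, and 0 to 1 leaving out a library. For PAG minus PFC, array weights called 2 members and 3712 genes, against 0; a pseudocount of 1 called 5 genes and no filter 11. Voom on the recovered reads called 5659 genes in PAG. In NAc, where 0 genes were called, removing the GC trend called 1 and array weights called 2.

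Signs that turned, as log2 values whose cause was not tested, were these. With the GC slope as covariate, SNI over sham was -0.0268 (NAc), -0.0094 (PFC) and -0.198 (PAG) for Cspg4, 0.0607 for Pdgfra in PAG, and 0.048 in NAc and 0.0451 in PAG for Enpp6; the Cspg4 differences between regions were -0.023 (NAc minus PFC), -0.0023 (PAG minus NAc) and -0.0252 (PAG minus PFC). With the GC trend removed, Enpp6 was 0.0249 in PAG and 0.0491 in NAc, and Neu4 0.0404 for NAc minus PFC. With median-of-ratios scaling, Enpp6 in NAc was 0.0096, Gpr17 for PAG over PFC -0.0287, Neu4 for NAc minus PFC 0.0234 and Pdgfra for PAG minus NAc -0.0157; with quantile scaling, Enpp6 in NAc was 0.0278, Neu4 for NAc minus PFC 0.0266 and Pdgfra for PAG minus NAc -0.01. With array weights, PFC values were -0.0509 (Pdgfra), -0.103 (Cspg4) and -0.0639 (Neu4), NAc minus PFC was 0.0761 (Gpr17) and 0.132 (Neu4), Enpp6 for PAG minus NAc 0.0362 and Gpr17 for PAG minus PFC 0.0447. Among SNI libraries Cspg4 was 0.0403 for PAG over NAc and 0.0298 for PAG over PFC. Leaving out 1 library, ranges crossing 0 were -0.0645 to 0.0349 (Enpp6, NAc), -0.123 to 0.136 (Cspg4, PFC), -0.0035 to 0.132 (Neu4, PFC), -0.0256 to 0.0429 (Pdgfra, PFC), -0.114 to 0.0064 (Gpr17, NAc minus PFC), -0.0738 to 0.0616 (Neu4, NAc minus PFC), -0.045 to 0.0404 (Gpr17, PAG minus NAc) and -0.0055 to 0.0513 (Pdgfra, PAG minus NAc). Depth limits Bmp4 most, with as few as 17 reads.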
